A study of Mus musculus with 12 samples.

Results

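Transcripts of the interleukin-6 (IL-6) family, its receptor chains and its signal genes Stat3 and Socs3 were followed in the mouse cecum. The cecal surface had been cauterized, an operation after which adhesions form. The set held 10 genes, Il6, Il11, Osm, Lif, Il6ra, Il6st, Osmr, Lifr, Stat3 and Socs3, which were read by 21 probes. They were chosen by gene name among 37074 genes on the array, with earlier results of these data known. C57BL/6 mice, labelled male, were used in 4 groups of 3 arrays each: a sham control, which the methods place at 0 h after a sham operation, and cecum taken at 3 h, at 12 h or at 72 h from coagulation with bipolar forceps through a midline incision. Sham tissue at the later times was not analysed here, so effects of the incision and of the cauterization cannot be told apart, and the age of the mice is not given in the sources used here.

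IL-6 family cytokines share the signal-transducing receptor chain gp130, encoded by Il6st. IL-6 and IL-11 first bind their own alpha chains, whereas leukemia inhibitory factor (LIF) and oncostatin M bind gp130 together with the LIF receptor or the oncostatin M receptor. The joined receptors activate JAK kinases, which phosphorylate STAT3, and STAT3 induces Socs3, an inhibitor that binds gp130 and ends the signal. In injured gut and peritoneum these cytokines are known products of stromal, mesothelial and myeloid cells.

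Upstream sequences of Il6, Il11 and Socs3 are printed because these genes were among the members that moved together and because their start regions held matches to motifs of factors active in inflammation. Each line gives the 250 bases before the RefSeq start site on GRCm38.p6, read 5′ to 3′ on the gene's strand, and capitals mark the motif matches.
Il6, chr5:30012864-30013113, plus strand: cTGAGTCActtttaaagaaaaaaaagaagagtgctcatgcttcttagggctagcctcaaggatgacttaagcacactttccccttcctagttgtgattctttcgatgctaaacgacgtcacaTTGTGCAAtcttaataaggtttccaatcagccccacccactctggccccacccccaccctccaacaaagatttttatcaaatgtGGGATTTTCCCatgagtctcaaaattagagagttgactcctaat
Il11, chr7:4778142-4778391, minus strand: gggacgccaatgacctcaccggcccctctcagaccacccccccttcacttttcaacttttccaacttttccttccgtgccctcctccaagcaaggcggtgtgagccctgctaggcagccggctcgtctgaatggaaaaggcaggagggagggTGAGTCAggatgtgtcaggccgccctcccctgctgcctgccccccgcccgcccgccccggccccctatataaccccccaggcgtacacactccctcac
Socs3, chr11:117969367-117969616, minus strand: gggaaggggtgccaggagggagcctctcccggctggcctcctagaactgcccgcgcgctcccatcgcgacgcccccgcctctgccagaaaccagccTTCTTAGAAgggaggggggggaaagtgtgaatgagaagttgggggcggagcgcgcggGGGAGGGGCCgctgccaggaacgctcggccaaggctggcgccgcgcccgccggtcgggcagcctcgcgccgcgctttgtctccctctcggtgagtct
The motifs searched on both strands, from 250 bases before to 50 after each start, were TTCNNNGAA (STAT), the same ends with a gap of 4 bases (spaced STAT), TGANTCA (AP-1), GGGA and CC with 4 bases between them (kappa B like) and TTGCNNAA (C/EBP like). The Socs3 window held a STAT match, TTCTTAGAA, from -154 to -146, and such a match occurred in 8.3% of 32851 windows in the RefSeq table. AP-1 matches were found in 4 of the 11 windows of members, those of Il6, Il11, Lif and Osmr, against 7.81% of all windows. Il6 also held a C/EBP-like match from -128 to -121 and a pair of overlapping kappa B-like matches between -44 and -34. The kappa B-like letters occurred in 7 of the 11 windows and in 20.7% of all windows, so that pattern is common in itself. The spaced STAT letters occurred in 1 of the 11 windows, that of an Il11 start site other than the printed one, and in 6.95% of all windows, and the C/EBP-like letters in 1 and in 10.8%. Matches describe these letters only. Both gene lookup and windows used RefSeq, where 10 of 10 members were found and 9 had a window.

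Before the results, 3 facts about the arrays bear on them. The probe of Xist, a transcript of the inactive X chromosome, was above background on 12 of 12 arrays and the probes of the Y-linked genes Ddx3y and Eif2s3y on 0, which goes against the label male, although 1 of 6 probes of the Y-linked gene Kdm5d was above background on 12 arrays. Markers of gut epithelium (8 genes, mean log2 level 5.45 to 6.82 over the arrays) and of smooth muscle (6 genes, 3.90 to 5.83) were bright in every group, as the label cecum would have it. The sham arrays, the 3 h arrays and 12 h replicates 1 and 2 lay on slide 1, and 12 h replicate 3 and the 72 h arrays on slide 2, so that 72 h can be separated from the slide only through 12 h replicate 3. Between 60.2% and 65.2% of probes were above background per array, no spot was saturated, and replicate arrays correlated at 0.985 to 0.992 across probes. Levels below are log2 intensities minus the 75th percentile of the same array. Differences are between group means, tested with limma over all 12 arrays, with p-values adjusted over 56605 probes by the Benjamini-Hochberg method. A gene was called when it differed more than 2-fold with an adjusted p below 0.05, and it is represented by its brightest probe unless stated. The median difference of all genes from sham was 0.08 (3 h), -0.01 (12 h) and -0.14 (72 h).

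Il6, Il11, Osm, the oncostatin M receptor gene Osmr and Socs3 were raised at each of the 3 times, with Il6 196-fold above a dim sham level at 3 h. Lif was raised at 3 h and 12 h and Stat3 at 3 h, while Il6ra was raised at 12 h and 72 h and Il6st at 72 h. At 3 h 7 of 10 members were called higher by limma and 0 lower, where 3.26% of all genes were called higher and 4.11% lower. At 12 h 7 were called higher and 0 lower (4.1% and 4.96% of all genes), and at 72 h again 7 and 0 (4.55% and 4.3%). With an unadjusted limma p below 0.05, 1 member was lower at 3 h and 1 at 12 h, Lifr in each case, and 0 at 72 h. By adjusted p alone 8, 10 and 8 members passed, against 18.7%, 21.2% and 20.7% of all genes. All arrays lay above all sham arrays for 8 members at 3 h, 9 at 12 h and 9 at 72 h (28.8%, 15.4% and 12.7% of all genes) and below them for Lifr at 3 h and 12 h and for 0 at 72 h (17.8%, 20.8% and 24.9%). The 5 genes Il6, Il11, Osm, Osmr and Socs3 were called higher at all 3 times, as were 1.36% of all genes. The methods name no test for the arrays. The methods' t-test for comparisons of groups, paired here by replicate number, called 0 members at any time after adjustment. Of all 56605 probes it passed only 0 for 3 h, 0 for 12 h and 1 for 72 h, so that this 0 holds for nearly the whole array. At an unadjusted p below 0.05 it had 7 higher and 1 lower for 3 h, 8 and 1 for 12 h and 8 and 0 for 72 h. The median difference of the 10 members was 1.93 (3 h), 1.83 (12 h) and 1.79 (72 h).

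**Figure D1:**
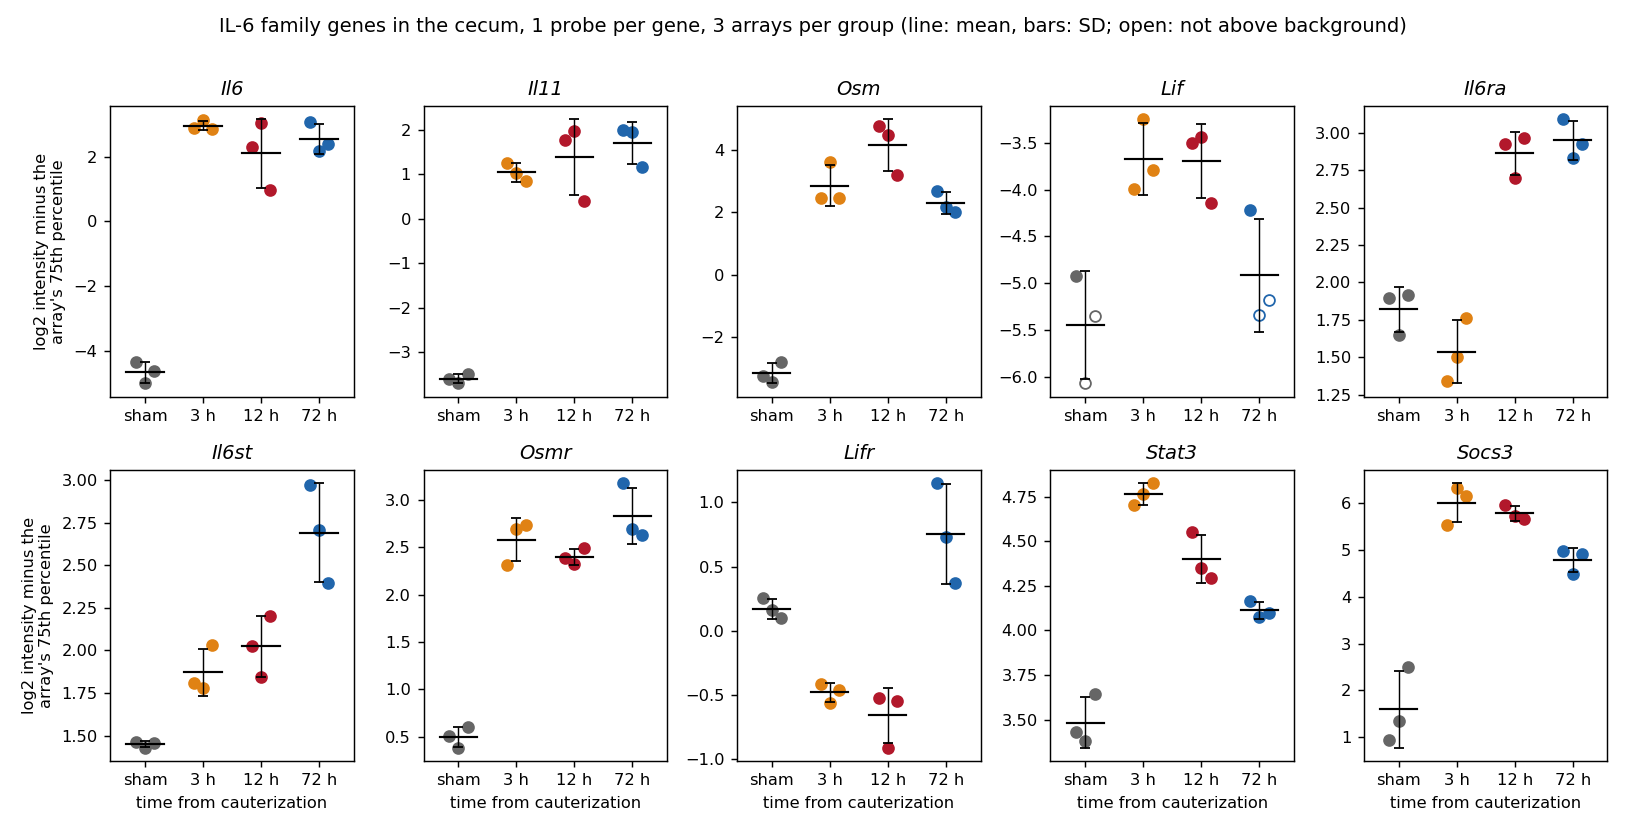
Levels of the 10 genes on each array (y axis: log2 intensity minus the array's 75th percentile, with its own range in each panel) by group (x axis), with the mean and SD of 3 arrays. All 9 treated arrays of Il6, Il11, Osm, Osmr and Socs3 sit above the 3 sham arrays, whereas Lifr lies below sham at 3 h and 12 h and above it at 72 h.

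Il6, which encodes the founding cytokine of the family, was read by a probe for NM_031168 at chr5:30346367-30346426 (mm9, plus strand). Its sham levels were -4.35, -5.00 and -4.62. They were 2.89, 3.12 and 2.85 at 3 h and 2.31, 3.03 and 0.95 at 12 h, then 3.07, 2.18 and 2.37 at 72 h. No treated array came near the sham range, and 12 h replicate 3, the 12 h array on slide 2, was the lowest of the treated arrays. The difference from sham was 7.61 ± 0.45 (SE, n = 3) at 3 h, or 196-fold, with an adjusted p of 1.14e-05. It was 6.75 ± 0.45 at 12 h (108-fold, limma's adjusted p = 1.41e-05) and 7.20 ± 0.45 at 72 h (147-fold, limma's adjusted p = 1.35e-05). With slide as a block it was 7.33 at 12 h and 8.92 at 72 h, both called. The sham levels lay near the lowest level that counted as above background on those arrays (-5.06, -5.08 and -4.93). With normexp background correction the 3 h difference was 4.65, also called, so the size of the fold depends on the correction. The steps between the 3 times, of at most 0.86, were not called. A second Il6 probe at chr5:30346159-30346218 was above background on 0 of 3 sham arrays and on all others, and gave at least 109-fold higher signal at 3 h, 59.6-fold at 12 h and 82.3-fold at 72 h. These bounds set the mean at each time against the lowest signal that counted as above background on the sham arrays.

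Il11, whose product acts through gp130 on stromal and epithelial cells, was read at chr7:4724847-4724906 (mm9, minus strand, NM_008350). Its levels were -3.60, -3.70 and -3.49 in sham, 1.26, 1.03 and 0.84 at 3 h and 1.77, 1.98 and 0.40 at 12 h, then 2.01, 1.95 and 1.16 at 72 h. All treated arrays were far above sham and the 3 times overlapped each other. Differences were 4.64 ± 0.37 at 3 h (24.9-fold, limma's adjusted p = 6.30e-05), 4.98 ± 0.37 at 12 h (31.5-fold, limma's adjusted p = 2.51e-05) and 5.30 ± 0.37 at 72 h (39.4-fold, limma's adjusted p = 2.46e-05). With slide as a block they were 5.47 at 12 h and 6.77 at 72 h, both called, and the step from 3 h to 72 h, 0.66 in the fit without the block, was then called as well (2.13, limma's adjusted p = 0.0297).

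Osm encodes oncostatin M, a cytokine made mainly by myeloid cells, and had its highest levels at 12 h. The probe for NM_001013365 at chr11:4140873-4140932 (mm9, plus strand) gave -3.25, -3.45 and -2.81 in sham. Levels were 2.48, 3.62 and 2.47 at 3 h and 4.77, 4.51 and 3.20 at 12 h, then 2.69, 2.19 and 2.02 at 72 h. The 72 h arrays were all below the 12 h arrays, and the 3 h arrays overlapped both. Differences from sham were 6.03 ± 0.43 at 3 h (65.3-fold, limma's adjusted p = 3.26e-05), 7.33 ± 0.43 at 12 h (161-fold, limma's adjusted p = 8.39e-06) and 5.47 ± 0.43 at 72 h (44.4-fold, limma's adjusted p = 4.63e-05), and with slide as a block the 72 h difference was 6.91, also called. The rise of 1.30 from 3 h to 12 h was not called (limma's adjusted p = 0.0966). It was called with normexp background correction, and with slide as a block or without 12 h replicate 3 (1.78, limma's adjusted p = 0.031). From 12 h to 72 h Osm fell by 1.86 ± 0.43 (limma's adjusted p = 0.0155). That call was lost with slide as a block (-0.90, limma's adjusted p = 0.285) and without 12 h replicate 1, 12 h replicate 2 or 72 h replicate 2 (values from -2.34 to -1.56 over all arrays left out). Within slide 2, where 12 h had 1 array, the difference was -0.90 (limma's adjusted p = 0.314). A second Osm probe at chr11:4139500-4139559 was above background on 0 of 3 sham arrays, and its signal was at least 3.92-fold higher at 3 h, 12.0-fold at 12 h and 2.81-fold at 72 h. For this probe the change from 3 h to 12 h was called (1.61, limma's adjusted p = 0.0351), as was that from 12 h to 72 h (-2.09, limma's adjusted p = 0.00629). The first of these calls was lost in 11 of 27 alternatives and the second in 3 of 27, among them slide as a block.

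Lif, the neighbour of Osm on chromosome 11, encodes leukemia inhibitory factor and stayed dim. Its single probe (NM_008501, chr11:4172032-4172091, mm9, plus strand) was above background on 1 of 3 sham arrays, all 3 h and 12 h arrays and 1 of 3 arrays at 72 h. Levels were -4.92, -6.07 and -5.35 in sham, -3.99, -3.25 and -3.79 at 3 h and -3.50, -3.43 and -4.15 at 12 h, then -4.22, -5.34 and -5.18 at 72 h. Arrays at 3 h and 12 h lay above all sham arrays, while those at 72 h overlapped sham. Lif rose by 1.77 ± 0.37 at 3 h (3.41-fold, limma's adjusted p = 0.00919) and 1.75 ± 0.37 at 12 h (3.37-fold, limma's adjusted p = 0.00812). The difference of 0.53 ± 0.37 at 72 h was not called (limma's adjusted p = 0.368), and it was -0.18 with normexp background correction. With that correction, with Dunnett's test or with a test against the 2-fold threshold itself (limma's treat), neither call of Lif was kept. Normexp with its offset of 50 also lowered the differences of Il6 to 4.65, 3.89 and 4.32, of Il11 to 2.72, 3.02 and 3.35 and of Osm to 4.31, 5.60 and 3.84 at 3 h, at 12 h and at 72 h, which were all called.

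**Figure D2:**
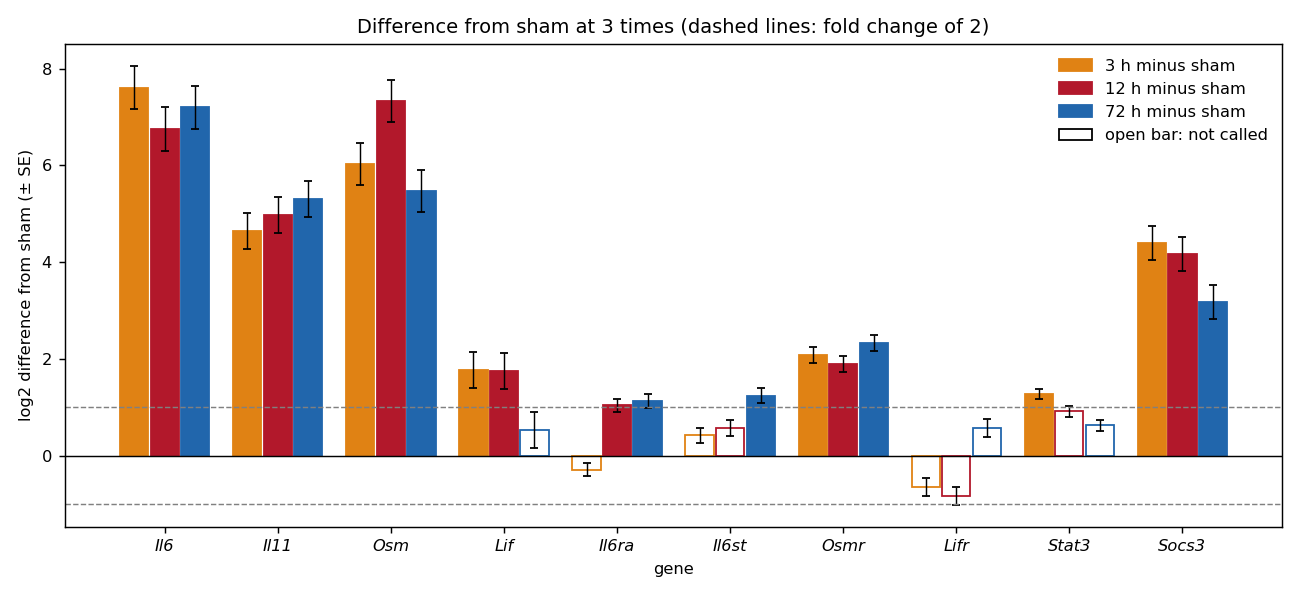
Difference of each gene's brightest probe from sham at 3 h, at 12 h and at 72 h (y axis: log2 difference ± SE from limma, n = 3 arrays per group), with open bars for differences that were not called and dashed lines at a fold change of 2. Il6 reaches 7.61 at 3 h and Osm 7.33 at 12 h, while Lifr is at -0.65 and -0.83 at these times.

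Of the 4 receptor chains, Osmr was called higher at all 3 times, Il6ra and Il6st later and Lifr at none. Il6ra encodes the alpha chain that binds IL-6, on the cell surface or in a shed form. Its brightest probe (NM_010559, chr3:89674054-89674113, mm9, minus strand) gave 1.90, 1.65 and 1.92 in sham, 1.34, 1.5 and 1.76 at 3 h and 2.93, 2.70 and 2.96 at 12 h, then 3.09, 2.83 and 2.92 at 72 h. The 12 h and 72 h arrays were all above sham and 3 h, and sham and 3 h overlapped. Differences from sham were -0.29 ± 0.14 at 3 h (limma's adjusted p = 0.183, not called), 1.04 ± 0.14 at 12 h (2.06-fold, limma's adjusted p = 0.000737) and 1.13 ± 0.14 at 72 h (2.19-fold, limma's adjusted p = 0.000642). Between 3 h and 12 h Il6ra rose by 1.33 ± 0.14 (limma's adjusted p = 0.00126), and on slide 1 alone by 1.28 (limma's adjusted p = 0.0173). The 12 h call, close to the fold threshold, was lost in 9 of 29 alternatives, among them slide as a block (0.99, under the fold threshold, limma's adjusted p = 0.0033), and without sham replicate 2 or 12 h replicate 3 (0.95 and 0.99). The 72 h call was lost with slide as a block (0.98, limma's adjusted p = 0.0821).

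A second Il6ra probe, at chr3:89680743-89680802, was dimmer and was not called. Its sequence is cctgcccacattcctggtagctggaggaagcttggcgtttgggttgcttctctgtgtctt, shown because both probes carry the same transcript name. It gave -3.89, -3.80 and -3.88 in sham, -4.67, -0.62 and -3.95 at 3 h and -2.72, -3.29 and -3.21 at 12 h, then -3.20, -3.42 and -3.09 at 72 h. One 3 h array, replicate 2, stood far above the others, and without it the 3 h difference turned from 0.78 to -0.45. As with the first probe, all 12 h and 72 h arrays lay above all sham arrays, by 0.78 at 12 h (limma's adjusted p = 0.573) and 0.62 at 72 h (limma's adjusted p = 0.623). Without 3 h replicate 2 these differences had limma's adjusted p = 0.0302 and 0.0732, and both were under the fold threshold.

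Il6st, which encodes gp130, rose at 72 h. The brightest of its 3 probes (NM_010560, chr13:113296586-113296645, mm9, plus strand) gave 1.46, 1.43 and 1.46 in sham, 1.81, 1.78 and 2.03 at 3 h and 2.03, 1.84 and 2.20 at 12 h, then 2.97, 2.71 and 2.39 at 72 h. Every treated array lay above every sham array, and 3 h and 12 h overlapped. The differences were 0.42 ± 0.16 at 3 h (limma's adjusted p = 0.0887), 0.57 ± 0.16 at 12 h (limma's adjusted p = 0.0258, below the fold threshold) and 1.24 ± 0.16 at 72 h (2.36-fold, limma's adjusted p = 0.000621), and only the last was called. It lost the call with slide as a block (0.98, limma's adjusted p = 0.0934). The dimmer probe at chr13:113294595-113294654 gave 0.44, 0.36 and 0.75, not called, and the probe at chr13:113273739-113273798, named for AK170020, was above background on 0 of 12 arrays.

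Osmr and Lifr, neighbours on chromosome 15, encode the chains that pair with gp130 for oncostatin M and LIF. Osmr (NM_011019, chr15:6763686-6763745, mm9, minus strand) gave 0.51, 0.39 and 0.60 in sham, 2.32, 2.69 and 2.73 at 3 h and 2.39, 2.32 and 2.49 at 12 h, then 3.17, 2.70 and 2.63 at 72 h. The treated arrays were all above sham. Osmr rose by 2.08 ± 0.17 at 3 h (4.23-fold, limma's adjusted p = 5.92e-05), 1.90 ± 0.17 at 12 h (3.73-fold, limma's adjusted p = 6.07e-05) and 2.34 ± 0.17 at 72 h (5.05-fold, limma's adjusted p = 2.47e-05). A probe of the same transcript at chr15:6791978-6792037 was also called at the 3 times, with 1.71, 1.83 and 2.74. Its 72 h call was lost with slide as a block (2.08, limma's adjusted p = 0.0831), and with normexp it was called at none of the 3 times. The probe at chr15:6804987-6805046, for ENSMUST00000177263, was called only at 72 h (1.46, limma's adjusted p = 0.0291), with 0.98 at 3 h and 0.69 at 12 h. The 72 h call was lost without sham replicate 2 or 3 or 72 h replicate 1 (1.06 to 1.70) and with slide as a block.

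Lifr (NM_013584, chr15:7147319-7147378, mm9, plus strand) gave 0.25, 0.16 and 0.10 in sham, -0.41, -0.56 and -0.46 at 3 h and -0.52, -0.91 and -0.55 at 12 h, then 1.15, 0.73 and 0.37 at 72 h. Arrays at 3 h and 12 h were all below sham and those at 72 h all above it. None of the differences from sham was called: -0.65 ± 0.18 at 3 h (limma's adjusted p = 0.0345), -0.83 ± 0.18 at 12 h (limma's adjusted p = 0.01) and 0.58 ± 0.18 at 72 h (limma's adjusted p = 0.0509). The rise from 12 h to 72 h, 1.41 ± 0.18 or 2.66-fold, was called (limma's adjusted p = 0.00101), and it was 1.30 with slide as a block (limma's adjusted p = 0.0327). From 3 h to 72 h the rise was 1.23 ± 0.18 (limma's adjusted p = 0.000988), which was not called with slide as a block (1.06, limma's adjusted p = 0.0905). Of the 2 dimmer Lifr probes, the one at chr15:7135072-7135131, for NM_001113386, was lower at 12 h (-1.0, limma's adjusted p = 0.00116), at the edge of the fold threshold, and without sham replicate 2 or 12 h replicate 2 or 3 it was not called (-1.11 to -0.94 over all arrays left out), nor with slide as a block (-0.96, under the fold threshold). The one at chr15:7141681-7141740 was higher at 72 h (1.01, limma's adjusted p = 0.0231) with 0.12 at 3 h and 0.05 at 12 h, a value that turned to -0.01 with the 75th percentile over probes above background, -0.08 with normexp and -0.04 with slide as a block. Its call at 72 h was lost without sham replicate 1 or 2 or 72 h replicate 1 (0.75 to 1.17) and with slide as a block.

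**Figure D3:**
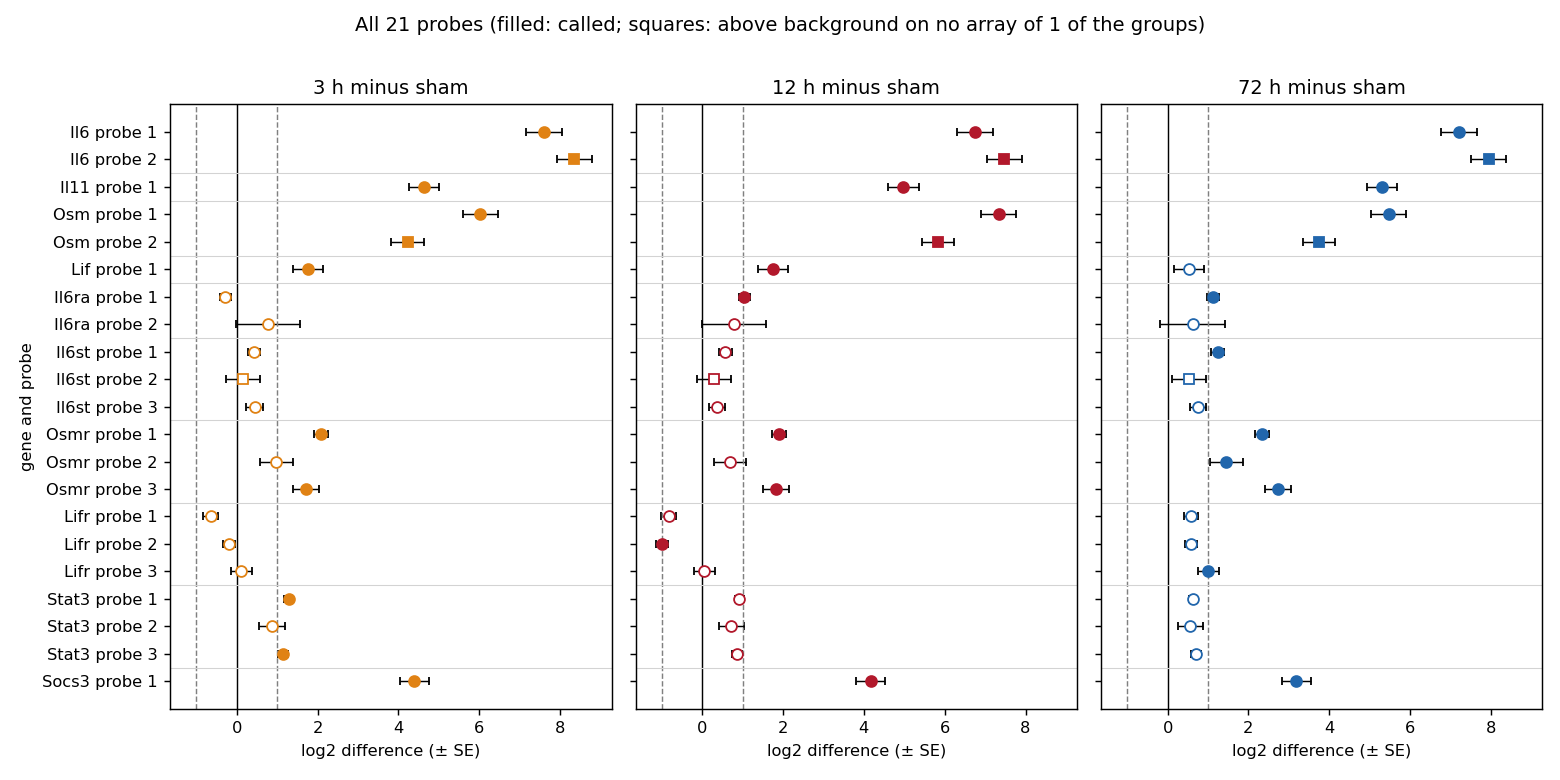
Differences from sham of all 21 probes at 3 h, at 12 h and at 72 h (x axis: log2 difference ± SE, y axis: gene and probe). The brightest probe of each gene comes first, and the others follow in order of probe name. Symbols are filled for called probes and square where a group has no array above background. Both Il6 and both Osm probes are called at each time, whereas probes of Il6ra, Il6st, Lifr and Osmr differ in size or call.

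Across probes, 11 of 21 were called higher at 3 h, 10 at 12 h and 12 at 72 h, where 2.96%, 3.85% and 4.13% of all 56605 probes were. With slide as a block 7 of the 21 were called higher at 72 h, both of Il6, both of Osm and the brightest of Il11, Socs3 and Osmr. 1 member probe was called lower, that of Lifr at 12 h, where 5.08% of all probes were, and 0 at 3 h and 72 h (4.37% and 4.13%). By limma's F-test over the 3 differences from sham, the brightest probe of each of the 10 members differed among the groups (adjusted p from 1.5e-05 for Il6 to 0.0072 for Lif), as did 39.3% of all genes.

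Stat3 and Socs3 encode a mediator of the signal and its brake, and their transcript levels do not show whether STAT3 was phosphorylated. Stat3, the transcription factor that gp130 activates, was read by a probe for NM_213659 at chr11:100749598-100749657 (mm9, minus strand). Levels were 3.43, 3.38 and 3.64 in sham, 4.70, 4.76 and 4.82 at 3 h and 4.55, 4.35 and 4.30 at 12 h, then 4.16, 4.08 and 4.10 at 72 h. The groups did not overlap and their order was sham, 72 h, 12 h, 3 h, although neither the step from 72 h to 12 h (limma's adjusted p = 0.104) nor that from 12 h to 3 h (limma's adjusted p = 0.0727) passed. From 3 h to 72 h Stat3 changed by -0.65 (limma's adjusted p = 0.0019), under the fold threshold, with values from -0.68 to -0.29 over the alternatives. Stat3 was called at 3 h (1.28 ± 0.11, 2.43-fold, limma's adjusted p = 8.87e-05). At 12 h (0.92, limma's adjusted p = 0.000362) and 72 h (0.63, limma's adjusted p = 0.00356) it lay below the fold threshold. A probe for NM_011486 at chr11:100759946-100760005 gave 1.14, 0.87 and 0.70 and was likewise called at 3 h alone, and one at chr11:100746462-100746521 gave 0.87, 0.72 and 0.56 and was not called.

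Socs3, the feedback inhibitor whose start region holds the STAT match printed above, was read by 1 probe (NM_007707, chr11:117827480-117827539, mm9, minus strand). It gave 0.94, 1.35 and 2.5 in sham, 5.52, 6.32 and 6.13 at 3 h and 5.95, 5.71 and 5.64 at 12 h, then 4.96, 4.48 and 4.89 at 72 h. Sham replicate 3 was the highest sham array, still below all treated arrays, and the 72 h arrays were below those at 3 h and 12 h. Socs3 rose by 4.40 ± 0.36 at 3 h (21-fold, limma's adjusted p = 6.83e-05), 4.17 ± 0.36 at 12 h (18-fold, limma's adjusted p = 5.71e-05) and 3.18 ± 0.36 at 72 h (9.06-fold, limma's adjusted p = 0.000355). From 3 h to 72 h it fell by 1.22 ± 0.36 (limma's adjusted p = 0.0281), a call lost in 9 of 28 alternatives, among them slide as a block (-1.02, limma's adjusted p = 0.379), and lost without 3 h replicate 2 or 3 or any 1 of the 72 h replicates.

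Between the 3 times, fewer members differed. From 3 h to 12 h 1 member rose, Il6ra, and 0 fell (1.89% and 1.56% of all genes), with 2 higher and 1 lower at an unadjusted limma p below 0.05. From 12 h to 72 h 1 rose, Lifr, and 2 fell, Osm and Lif (4.33% and 3.19% of all genes). From 3 h to 72 h 2 rose, Il6ra and Lifr, and 2 fell, Socs3 and Lif (6.19% and 5.51%). With 10 genes a single call already exceeds each of these shares. Lif fell by 1.22 ± 0.37 from 12 h to 72 h (limma's adjusted p = 0.048) and by 1.24 ± 0.37 from 3 h to 72 h (limma's adjusted p = 0.0301), and with slide as a block both were not called (-0.77, limma's adjusted p = 0.405, and -0.56, limma's adjusted p = 0.632). The first was lost in 16 of 28 alternatives, among them those without sham replicate 3, any 1 of the 3 h replicates, 12 h replicate 1 or 2, or 72 h replicate 2 or 3 (values from -1.57 to -1.01 over all arrays left out). The second was lost in 10 of 28, among them those without 3 h replicate 2 or 3 or 72 h replicate 2 or 3 (-1.59 to -1.03). Without 12 h replicate 1 or 2 or 72 h replicate 2, Lifr was the 1 member still called from 12 h to 72 h.

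Chains and ligands that share a receptor were compared within each array, so that the scaling of the array cancels. The question was whether both members of a pair changed by the same amount, which a difference of log2 levels within an array shows for the 2 probes used. Each gene stood by its brightest probe, and other probes of a gene could change by another amount. At 3 h the probes of Il6ra differed from sham by -0.29 and 0.78, the latter -0.45 without 3 h replicate 2. Those of Osmr ranged from 0.98 to 2.08 and those of Lifr from -0.65 to 0.12. Lif was above background on 1 of 3 sham arrays. Lifr minus Osmr fell by 2.73 on the log2 scale at 3 h, 2.73 at 12 h and 1.76 at 72 h relative to sham, with all treated arrays below all sham arrays. Il6ra minus Il6st changed by -0.71 at 3 h, by 0.47 at 12 h and by -0.11 at 72 h. At 3 h all 3 arrays were below sham, at 12 h all 3 were above it, and at 72 h the arrays overlapped sham. Lif minus Osm changed by -4.26, -5.58 and -4.94, and Il6 minus Il11 changed by 2.97, 1.78 and 1.90, without overlap with sham. Two-sided exact permutation tests gave p = 0.1 for 11 of the 12 comparisons, the smallest p that 3 against 3 arrays allow, and p = 0.5 for Il6ra minus Il6st at 72 h, so none could pass 0.05 (adjusted over 12 tests, 0.109 at the lowest).

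**Figure D4:**
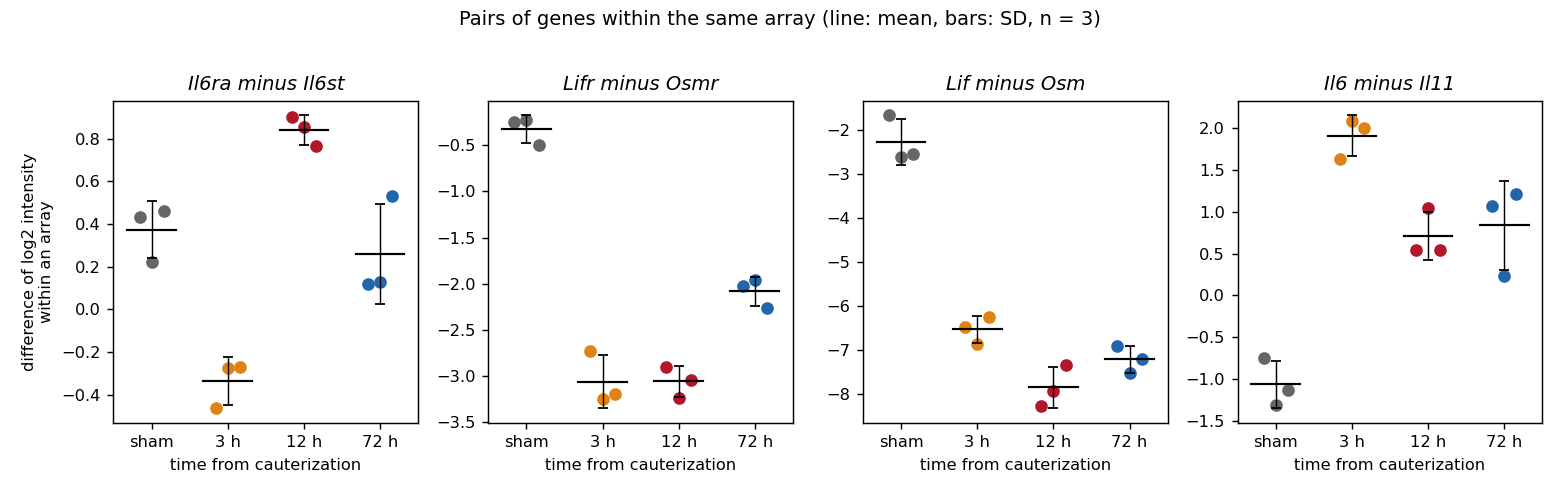
Difference of log2 intensity within each array for 4 pairs of genes, each by its brightest probe (y axis, with its own range in each panel), by group (x axis), with the mean and SD of 3 arrays. Lifr minus Osmr drops by 2.73 at 3 h and by 1.76 at 72 h, and Il6ra minus Il6st lies below sham at 3 h and above it at 12 h.

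Other genes of the pathway were read from 7 lists. Of 26 genes that STAT3 is known to induce, 17 rose at 3 h, 18 at 12 h and 14 at 72 h, and 0 fell by limma, with a list median of 1.63, 2.11 and 1.40. Of these 26, 24 were above background on at least 1 array. Among all genes 3.26%, 4.1% and 4.55% were called higher at the 3 times and 4.11%, 4.96% and 4.3% lower. The median differences of all genes were 0.08, -0.01 and -0.14. Lcn2, which encodes the iron-siderophore binder lipocalin-2, rose by 6.02 ± 0.60 at 3 h (limma's adjusted p = 0.000204), 8.93 ± 0.60 at 12 h (limma's adjusted p = 1.60e-05) and 6.59 ± 0.60 at 72 h (limma's adjusted p = 0.000106). Hp, encoding the hemoglobin scavenger haptoglobin, rose by 4.35, 6.46 and 7.63. Saa3, an acute phase protein, rose by 4.33 at 3 h and 5.69 at 12 h, and Timp1, an inhibitor of matrix metalloproteinases, by 6.27 at 72 h. Both were called higher at each of the 3 times, and values are given where they were among the 3 largest of the list. Lcn2 and Hp are also products of neutrophils. The list was chosen with earlier results of these data known, and whether STAT3 raised these genes was not tested. Il10, an anti-inflammatory cytokine, was above background on 0 of 3 sham arrays and at least 3.51-fold higher at 3 h (limma's adjusted p = 0.00546) and 3.86-fold at 12 h (limma's adjusted p = 0.00359).

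Lists of the upstream machinery, in this paragraph and the next, held few calls, and the same shares of all genes stand beside them. Among 8 other ligands of the family, 0 were called at 3 h, Ebi3 rose (3.13 ± 0.51, limma's adjusted p = 0.00199) and Ctf1 fell (-1.75 ± 0.21, limma's adjusted p = 0.000334) at 12 h, and Ebi3 was higher at 72 h as well (1.93 ± 0.51, limma's adjusted p = 0.0246). Ebi3 encodes a subunit of IL-27 and Ctf1 cardiotrophin-1. Of 4 measured other receptor chains, 0 were called at any time by limma, and at an unadjusted limma p below 0.05 these were 1 higher and 1 lower for 3 h, 0 for 12 h and, for 72 h, 2 higher and 1 lower. Il11ra1, the alpha chain for IL-11, was at -0.62 at 3 h (limma's adjusted p = 0.036), -0.39 at 12 h and 0.59 at 72 h (limma's adjusted p = 0.044). Among 10 JAK and STAT genes other than Stat3, Jak2 (1.09 ± 0.14, limma's adjusted p = 0.000547) and Stat4 (1.39 ± 0.34, limma's adjusted p = 0.0156) rose at 12 h, with 0 called at 3 h and 72 h. List medians of these 3 lists stayed between -0.39 and 0.39.

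Of 14 other inhibitors of the signal, Socs1 (1.73 ± 0.21, limma's adjusted p = 0.000499), the phosphatase gene Ptpn2 (1.27 ± 0.12, limma's adjusted p = 0.000126) and the STAT5 feedback gene Cish (1.26 ± 0.13, limma's adjusted p = 0.000208) rose at 3 h. At 12 h Socs1 (1.58, limma's adjusted p = 0.000557) and the phosphatase gene Ptpn6 (1.08, limma's adjusted p = 0.00805) did, and at 72 h 0 were called. Of 4 genes for proteases that shed the IL-6 receptor or for their partners, Rhbdf2, which encodes a partner of the protease ADAM17, rose at 12 h (1.40 ± 0.15, limma's adjusted p = 0.000196). At 3 h and 72 h 0 of them were called. In the MAPK and PI3K arm, 1 of 13 genes was called at each time, Cebpb, a transcription factor first found as a nuclear factor for IL-6 expression, with 2.51 ± 0.23 (limma's adjusted p = 0.000115), 3.25 (limma's adjusted p = 1.84e-05) and 2.86 (limma's adjusted p = 4.83e-05).

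**Figure D5:**
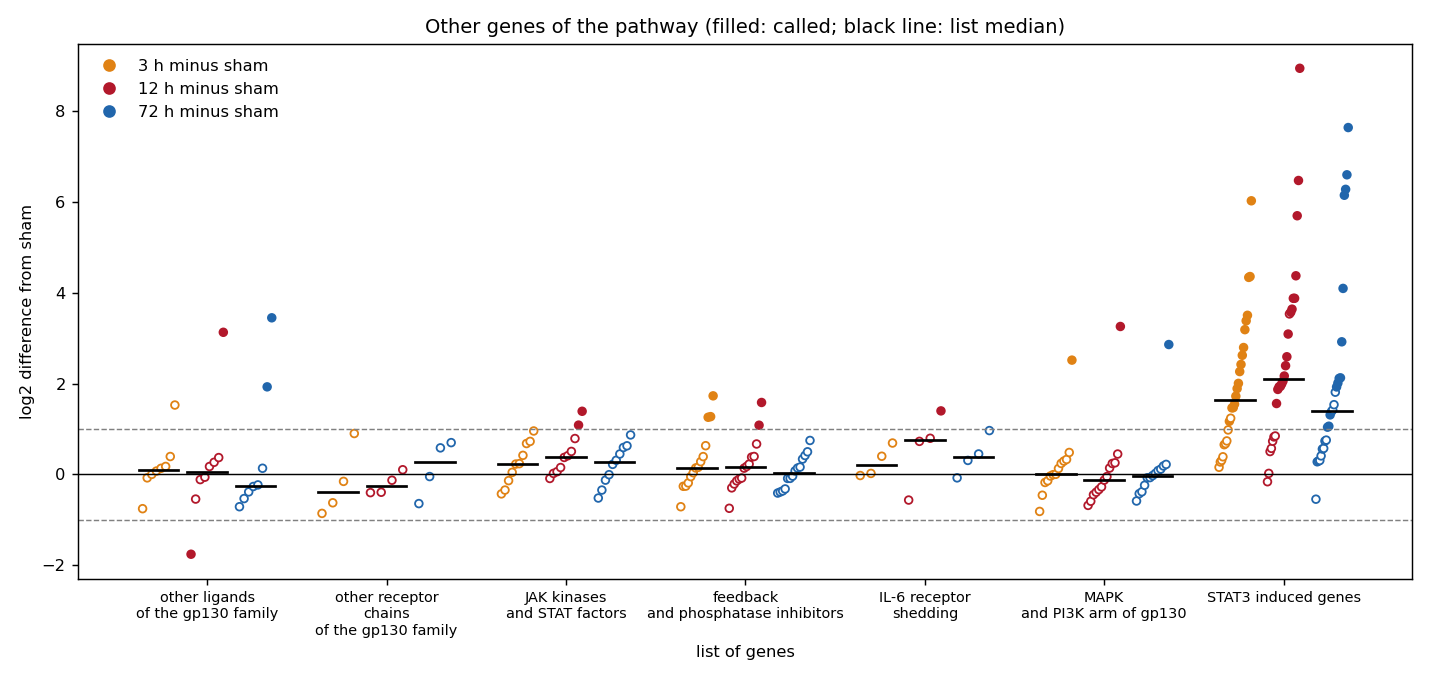
Differences from sham of other genes of the pathway in 7 lists (y axis: log2 difference; x axis: list), with 1 point per gene at each time, filled where called, and black lines at list medians. Medians of STAT3 induced genes are 1.63, 2.11 and 1.40, while those of the other lists lie between -0.39 and 0.76.

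Markers of several cell types moved with these transcripts, and in bulk RNA more cells of a type and more RNA per cell cannot be told apart. Among all genes 3.26%, 4.1% and 4.55% were called higher than sham at 3 h, at 12 h and at 72 h, and 4.11%, 4.96% and 4.3% lower. Of 11 neutrophil markers, 7 were called higher at 3 h, 10 at 12 h and 7 at 72 h, and their mean log2 level per array ranged from -2.76 to -1.85 in sham, 1.69 to 2.48 at 3 h, 3.23 to 3.72 at 12 h and 1.35 to 2.68 at 72 h. Cxcr2, Ngp and Ltf were above background on no sham array. 1 of the 11 went the other way, lower than sham at each of the 3 times at an unadjusted limma p below 0.05, though 0 were called lower. This list was highest at 12 h, as was Osm. Of 9 macrophage and monocyte markers 1, 4 and 8 were called higher, and their mean level ranged from 1.14 to 1.40 in sham and from 2.93 to 3.36 at 72 h. Of 6 fibroblast markers 0 were called at 3 h, 4 fell at 12 h and 5 rose at 72 h, with mean levels of 4.09 to 4.20 in sham, 3.03 to 3.17 at 12 h and 5.41 to 6.43 at 72 h. The fibroblast, macrophage, mesothelial and endothelial lists were highest at 72 h, as were the means of Il6ra, Il6st, Osmr, Lifr and Il11. For none of these genes was the step from the next highest group called. Of 6 mesothelial markers 2, Upk3b and Lrrn4, fell at 3 h and 12 h and were above background on no array there, while Pdpn rose at each time and Upk1b and Wt1 at 72 h. Smooth muscle markers fell, 6 of 6 at 12 h and 5 of 6 at 72 h. Of 5 endothelial markers 2 rose at 72 h, of 8 epithelial markers 1 fell at 72 h, and 0 of 7 T cell and 0 of 4 fat cell markers were called at any time. At an unadjusted limma p below 0.05, 1 T cell marker was lower at 3 h and 1 at 72 h, and 1 fat cell marker at 3 h and 1 at 12 h. So was 1 macrophage and monocyte marker at 3 h and 1 at 12 h. The part of these cells in the changes of the 10 genes was not tested.

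Among the genes whose levels ran most like those of Il6 over the 12 arrays, out of 22396 genes above background on at least 9 arrays, were Tnfaip6 (Pearson r = 0.995), a transcript listed as ENSMUST00000188406 (0.984), Pi15 (0.982) and Selp (0.98). Tnfaip6 encodes a hyaluronan-binding protein and Selp the adhesion molecule P-selectin. Tnfaip6 was 3.91, 3.58 and 3.50 above sham at 3 h, at 12 h and at 72 h. For Il6st the nearest were Slc12a4 (0.98), Mmp14 (0.976), Bmper (0.973), Ier5l (0.97) and Arl4c (0.967), and Mmp14, a membrane-bound matrix metalloproteinase, was 0.48, 0.86 and 2.13 above sham. These correlations describe 12 arrays that share group means and slides.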

How the data were processed

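Cecum RNA from 12 samples, 3 per group, was hybridised to 1-colour Agilent arrays; the methods call the replicates biological, and p-values measure the spread between these samples only. The authors deposited the scanner output, whose intensity values were background-subtracted by Feature Extraction, with probe coordinates on mm9. A deposited table of the authors' log2 values was scaled to the 75th percentile in GeneSpring, per the methods. Its values were centred on each probe's median over the arrays (r = 0.99997 with scanner values treated so, column medians from -0.18 to 0.13), and it served as an alternative.

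Control and outlier spots were removed, log2 processed signals were averaged per probe, and the 75th percentile of each array over probes was subtracted. Group means were fitted to all 12 arrays with limma 3.58.1 in R 4.3.3 and p-values were adjusted over 56605 probes by the Benjamini-Hochberg method. A gene was represented by whichever of its probes was brightest on average. The procedure was tested on simulated data with known differences. Where a probe was above background on no array of a group, its fold was given as a bound. All members and probes were named. From other lists, up to 3 called genes with the largest changes per time were named if above background on all arrays of both groups or bounded, and Il10, Il11ra1, Ngp and Ltf beyond that rule after their values were seen. The 5 genes most like Il6 and Il6st in level were named too, except that some items these rules select are not reported here. Members and lists were chosen with earlier results of these data known. Alternatives changed the normalization, background correction, source table, dim-probe filter or floor, outlier spots, slide or replicate block, samples, variance model, test, gene summary or threshold, and the 75th percentile over spots was added after the data were seen. Probes were not placed in exons, because the mm9 genome was not used here. The number of arrays limits the precision.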

Additional observations from a re-analysis of the deposited data

Results flagged for a closer look

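For 5 of the 10 genes a change between times was called, tested by the direct comparisons between times. Il6ra rose by 1.33 between 3 h and 12 h and by 1.41 between 3 h and 72 h. Lifr rose by 1.41 between 12 h and 72 h and by 1.23 between 3 h and 72 h. Osm fell by 1.86 between 12 h and 72 h. Lif changed by -1.22 between 12 h and 72 h and by -1.24 between 3 h and 72 h. Socs3 fell by 1.22 between 3 h and 72 h. All are log2 differences called by limma. The 72 h arrays lay on another slide than all 3 h arrays and 12 h replicates 1 and 2. With slide as a block, the rises of Il6ra and that of Lifr from 12 h to 72 h were still called and the others were not. By limma's adjusted p alone, Stat3 (-0.65, 0.0019) and Il6st (0.82, 0.00341) also differed between 3 h and 72 h. Il6st did so between 12 h and 72 h too (0.67, limma's adjusted p = 0.0157). These changes of Stat3 and Il6st were under the fold threshold and not called. Groups of 3 arrays are too small for the check on single outlying arrays.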

How the results depend on the processing

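Of 29 calls of members, 15 were kept under every alternative except the methods' t-test (Il6, Il11, Osm, Osmr and Socs3 against sham at 3 times), 24 under every array left out, and 0 changed direction. The methods' t-test called 0 members in each of the 6 comparisons, with lowest adjusted p of 0.154 (3 h), 0.0906 (12 h) and 0.111 (72 h), but of all 56605 probes it passed 0 or 1 in each. With an array left out, the members called numbered 7 to 7 for 3 h, 6 to 7 for 12 h and 7 to 7 for 72 h. From 3 h to 12 h the count of 1 became 2 with normexp or slide as a block and 0 with treat or the mean of all probes, and ranged from 1 to 2 over arrays left out. From 12 h to 72 h the count of 3 became 1 with slide as a block and 0 with treat, and ranged from 1 to 3. From 3 h to 72 h the count of 4 became 2 with normexp, slide as a block or the mean of all probes and 0 with treat, and ranged from 2 to 4. Slide as a block lowered the genes called from 3282 to 1152 for 72 h against sham, from 2788 to 1225 for 72 h against 12 h and from 4339 to 1152 for 72 h against 3 h. The numbers of replicates did not pair the samples (6 of 18 same-numbered pairs had deviations correlated above 0.1, median r = -0.03), and the replicate block ended the calls of Lif from 12 h to 72 h, of a second Osm probe from 3 h to 12 h and of a second Osmr probe at 72 h, leaving 7, 7 and 7 members called against sham.

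Values that changed sign were all of differences not called. Il6ra minus Il6st at 72 h became 0.0355 (exact p = 1) with the mean of all probes, which also turned Il6ra at 3 h to 0.25 and from 12 h to 72 h to -0.0377. Normexp turned Lif at 72 h to -0.18, and at 72 h a second Il6ra probe to -0.00973 and a second Stat3 probe to -0.0374. Slide as a block turned Il6ra from 12 h to 72 h to -0.0131, and from 3 h to 72 h Il6 to 1.30 and Osm to 0.88. Lif from 3 h to 12 h became 0.0384 with the 75th percentile over probes above background and 0.21 with slide as a block, and ranged from -0.18 to 0.21 over arrays left out, positive without 3 h replicate 2 or 12 h replicate 3. Without 12 h replicate 3 the changes from 12 h to 72 h turned, with ranges of -0.13 to 0.91 for Il6 and -0.17 to 0.62 for Il11. Without 3 h replicate 2 those at 3 h did, with -0.45 to 1.57 for a second Il6ra probe and -0.047 to 0.30 for the dimmest Lifr probe. At 12 h that Lifr probe became -0.00582, -0.0807 and -0.0376 with the percentile over probes above background, normexp and slide as a block, and ranged from -0.0695 to 0.26 over arrays left out. The cause was not tested. Of 2784 values of list counts under alternatives, 147 moved by over 1.5 times.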
